A study of Danio rerio with 6 samples.

Results

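Troponin and tropomyosin are the calcium switch of striated muscle. Tropomyosin lies along the actin filament and covers the sites that myosin binds, and the troponin complex moves it: troponin C binds calcium, troponin I holds the filament off at rest, and troponin T ties the complex to tropomyosin. Fast skeletal, slow skeletal and heart muscle differ in the isoforms of these subunits that they use, though some isoforms are shared between them. An isoform's name is thus only a partial guide to the kind of muscle in which a transcript is chiefly made. In zebrafish, trunk muscle and the heart tube are both forming and contracting by the stage sampled here.

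The members were the probe sets annotated to tnni2a.4, tnnt3a, tnnt3b, tnnc2, tnnt1, tnnt2a, tnni1b, tnnc1a, tpma or tpm4a. Of these 10 genes, 8 had a probe set, and 2 (tnnt1 and tnni1b, the slow troponin T and a slow-type troponin I) had none under those names. tnnc2 was found only under its present symbol, tnnc2.2, for which the RefSeq gene table lists tnnc2 as a synonym. That gave 9 probe sets, or 8 by the annotated symbol alone, among 15502 that were not array controls. With tnnt1 and tnni1b missing, the comparison of fast or skeletal muscle isoforms with others rested on tnnt2a, tnnc1a and tpm4a. These are cardiac troponin T, a troponin C of the cardiac and slow type by name, and tropomyosin 4. Whether tnnc1a is made in slow muscle of these embryos was not tested.

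Tu embryos were exposed from 50% epiboly, during gastrulation, to 24 hours of age, either to 6.5 uM leflunomide or to its solvent DMSO alone. Leflunomide, a drug for rheumatoid arthritis, blocks pyrimidine synthesis through dihydroorotate dehydrogenase. Each group held 3 Affymetrix arrays of total RNA from whole embryos, and this number limits the precision. The labels speak of 1 embryo per sample and do not say whether embryos were pooled or came from separate clutches, and p-values thus reflect the spread between these samples only, which may be technical. In whole embryos, fewer muscle cells and less RNA per muscle cell cannot be told apart.

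The deposited log2 values were centred, so that the median of each probe set over the 6 arrays is 0. They show differences between arrays and not absolute levels, and no probe set's level was set against another's. Across 12516 tested probe sets, limma at an adjusted p under 0.05 called 2640 (21.1%), of which 1390 were lower (11.1%) and 1250 higher (9.99%) after leflunomide, and the median difference was 0.04. Leflunomide array 1 changed least, with a median absolute change of 0.55 over the called probe sets, against 0.76 and 0.72 on arrays 2 and 3. The spike-in controls DapX, LysX, PheX and ThrX had a 3' minus 5' probe set difference of 0.44 to 1.75 on leflunomide array 3. On the other 5 arrays it ran from -0.58 to 0.22. The spike-ins TrpnX (-0.10), BioB (0.04), BioC (-0.06) and BioDn (2.57e-05) were not raised in this way on array 3. The control for the embryos' own RNA, a muscle actin named Dr-acta1, had a 3' minus 5' difference of 0.48, 0.64 and 0.63 on the leflunomide arrays, against -0.48, -0.62 and -0.87 on the DMSO arrays. This difference thus separated the groups without overlap. As this actin transcript was itself lower after leflunomide, RNA quality and its fall cannot be told apart here. Within that transcript the leflunomide minus DMSO difference was -1.39 at the 3' probe set, -1.77 at the middle one and -2.62 and -1.93 at the 5' probe sets. The transcript was thus lower after leflunomide at each of them. The amount differed between probe sets, also between those at the 5' end. The part of this 3' minus 5' difference in the sizes of the members' differences was not tested.

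Fast muscle isoforms of all 3 troponin subunits, and skeletal muscle tropomyosin, fell in leflunomide embryos. Cardiac troponin T (tnnt2a) and tropomyosin 4 (tpm4a) were not called, and tnnc1a was not tested. Outside the members, tnnt2c, a troponin T of the cardiac type by name, was lower (-0.67, limma adjusted p = 0.0173). The 3' minus 5' difference of the actin control moved with the same groups. Of the 9 member probe sets, 8 passed the filter on level. limma called 6 of these 8 lower and 0 higher (0 higher also at an unadjusted p under 0.05), where 11.1% of all tested probe sets were called lower and 21.1% in either direction. In the same 6 all leflunomide arrays lay below all DMSO arrays, which held for 18.7% of all tested probe sets, and 41.3% of these had groups apart in either direction. Among the 3625 probe sets in the highest level band, which most likely held 7 of the 8, 14.9% were called lower. The 6 called probe sets stand for 5 genes (tnni2a.4, tnnt3a, tnnt3b, tnnc2.2 and tpma), and their falls ran from 3.72-fold to 57.6-fold. A fall of at least 4-fold was called for 5 of the 8, and for 0.711% of all tested probe sets. The median difference of the 8 was -2.58.

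**Figure D1:**
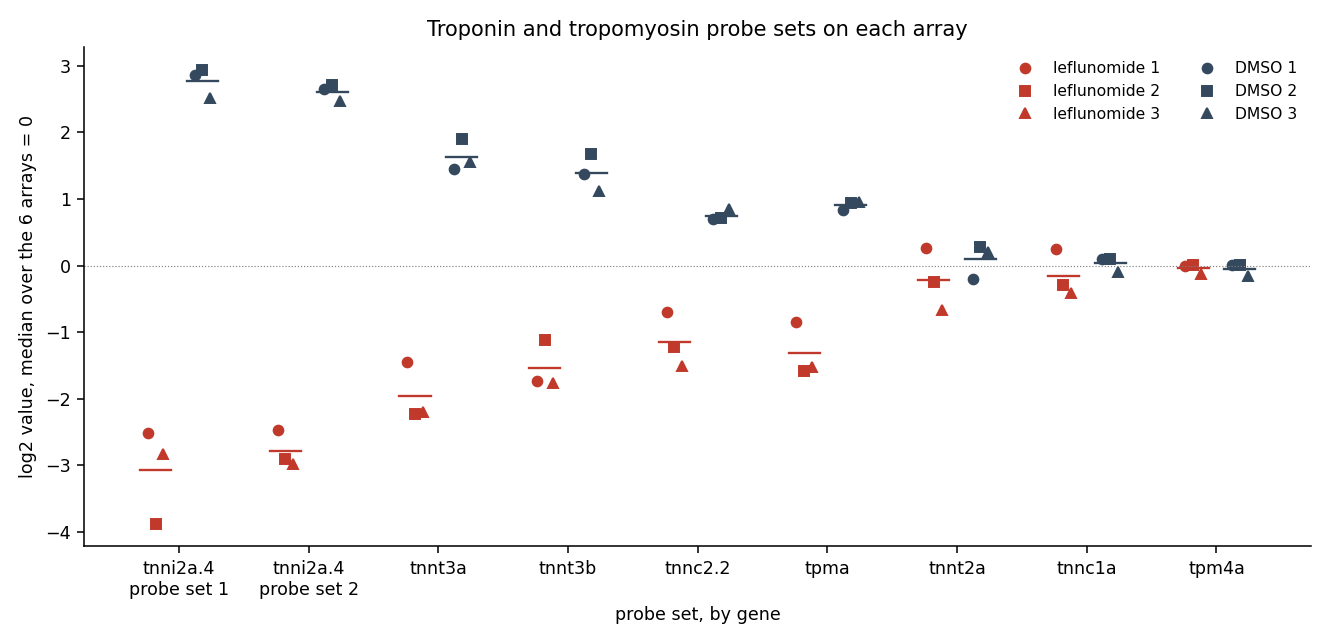
Centred log2 values (vertical axis, 0 is the median over the 6 arrays) of the 9 member probe sets, with leflunomide arrays in red and DMSO arrays in blue, symbols for replicate numbers and short lines for group means. For the probe sets of tnni2a.4, tnnt3a, tnnt3b, tnnc2.2 and tpma the leflunomide arrays lie wholly below the DMSO arrays. For tnnt2a, tnnc1a and tpm4a the groups overlap.

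Troponin I showed the widest separation. tnni2a.4, a fast skeletal troponin I, had 2 probe sets. At the first (suffix a_at) the centred log2 values were -2.52, -3.88 and -2.83 on leflunomide arrays 1 to 3, against 2.86, 2.94 and 2.52 on DMSO arrays 1 to 3. The groups lay 5.04 apart at their nearest arrays, and array 2 was the lowest by more than 1 log2 unit. The log2 difference was -5.85 (SE 0.32, 57.6-fold lower, limma adjusted p = 0.000121, n = 3 and 3). This probe set had a median level between 4 and 8, read from the rounding of the values, so its level on leflunomide array 2 was at most 4.12, close to the level under which probe sets were not tested.

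The second probe set of tnni2a.4 (suffix at) was the steadier. It had -2.47, -2.90 and -2.99 on the leflunomide arrays, against 2.65, 2.71 and 2.47 on the DMSO arrays. The difference was -5.39 (SE 0.16, 42.0-fold lower, limma adjusted p = 4.86e-06), within the 95% interval of the first, which ran from -6.60 to -5.09. By this difference leflunomide embryos held 2.38% of the DMSO signal. Ranked from the lowest difference among all tested probe sets, the 2 probe sets stood in places 4 and 8. A further probe set of the same design stem is annotated both to tnni2a.4 and to its neighbour tnni2a.2 and was not counted as a member. Its difference was -5.70 (SE 0.22).

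The fast troponin T genes fell next in size. tnnt3a had -1.45, -2.23 and -2.20 on the leflunomide arrays, against 1.45, 1.90 and 1.56 on the DMSO arrays. Its difference was -3.60 (SE 0.23, 12.1-fold lower, limma adjusted p = 0.000226), and leflunomide array 1 lay nearest to DMSO. tnnt3b, its paralog, had -1.73, -1.12 and -1.76 in leflunomide embryos, against 1.37, 1.68 and 1.12 in DMSO embryos. Here array 2 was the nearest to DMSO, unlike in the other called members, in which array 1 was nearest (5 of the 6 called probe sets). The difference of tnnt3b was -2.93 (SE 0.21, 7.61-fold lower, limma adjusted p = 0.000429).

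tnnc2.2, a fast skeletal troponin C, changed least among the called member probe sets. Its values were -0.70, -1.23 and -1.51 on the leflunomide arrays, against 0.70, 0.71 and 0.84 on the DMSO arrays. The difference was -1.89 (SE 0.20, 3.72-fold lower, limma adjusted p = 0.00145), with a 95% interval of -2.35 to -1.44 that did not reach those of tnni2a.4, tnnt3a and tnnt3b. The DMSO arrays agreed to an SD of 0.08, against an SD of 0.41 over the leflunomide arrays.

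tpma, the alpha-tropomyosin of skeletal muscle, had -0.84, -1.59 and -1.52 in leflunomide embryos, against 0.84, 0.93 and 0.96 in DMSO embryos. The difference was -2.23 (SE 0.20, 4.69-fold lower, limma adjusted p = 0.000894). Its 95% interval, -2.69 to -1.77, overlapped that of tnnc2.2, so the order of these neighbours is not settled by their spread. The same holds for tnnt3a and tnnt3b. Such intervals hold the spread between arrays only. Probe sets of the single transcript Dr-acta1 had differences from -1.39 to -2.62, so intervals that lie apart do not settle an order of genes either.

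tnnt2a encodes cardiac troponin T, whose loss stops the heartbeat in zebrafish. It had 0.27, -0.24 and -0.67 on the leflunomide arrays, against -0.20, 0.28 and 0.20 on the DMSO arrays. Leflunomide array 1 lay within the DMSO range, while arrays 2 and 3 lay below it. The difference was -0.31 (SE 0.24, 95% interval -0.87 to 0.25, limma adjusted p = 0.416), an interval that reaches a decrease of 0.87. Without leflunomide array 1 it was -0.55 (limma adjusted p = 0.0881), and without leflunomide array 3 it was -0.08 (adjusted p = 0.829).

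tnnc1a, a troponin C of the cardiac and slow type by name, most likely had a median level under 4. The 95% interval of its recovered level was 2.25 to 4.09, and it was not tested. Its values were 0.24, -0.29 and -0.41 on the leflunomide arrays, against 0.10, 0.10 and -0.10 on the DMSO arrays. As in tnnt2a, leflunomide array 1 was the highest of its group and the groups overlapped. The difference was -0.19, and in the fit without the filter on level its 95% interval was -0.59 to 0.22 (limma adjusted p = 0.539).

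tpm4a, a tropomyosin 4 gene known from the zebrafish heart and from non-muscle cells, was level across the arrays. It had -0.002, 0.01 and -0.12 on the leflunomide arrays, against 0.002, 0.004 and -0.15 on the DMSO arrays. The difference was 0.01 (SE 0.10, 95% interval -0.22 to 0.25, limma adjusted p = 0.951), and its sign turned when arrays were scaled to a common median (-0.01).

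Paralogs, chiefly a fast or skeletal muscle isoform and another isoform, were then set against each other on each array, which cancels any shift of a whole array. Of 7 planned pairs, 4 had both genes on the array. An exact permutation test of 3 arrays against 3 cannot give a two-sided p below 0.10. The centred value of tnnt3a minus that of tnnt2a was -1.72, -1.99 and -1.54 in leflunomide embryos, against 1.65, 1.62 and 1.36 in DMSO embryos. This troponin T difference fell on every leflunomide array by about the same amount, -3.27, -3.53 and -3.08 from the DMSO mean, and averaged -3.29 between groups (exact permutation p = 0.1, 0.133 adjusted over 4 pairs).

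For troponin C, tnnc2.2 minus tnnc1a was -0.94, -0.94 and -1.10 in leflunomide embryos, against 0.60, 0.61 and 0.94 in DMSO embryos. The group difference was -1.71 (exact permutation p = 0.1, adjusted 0.133), and the leflunomide SD of 0.09 was smaller than that of either gene alone (0.41 and 0.35). This value is made up chiefly of the difference of tnnc2.2 (-1.89, against -0.19 for tnnc1a). With its median level most likely under 4, tnnc1a may have had little room to fall, which was not tested. For tropomyosin, tpma minus tpm4a was -0.84, -1.60 and -1.40 in leflunomide embryos, against 0.84, 0.93 and 1.11 in DMSO embryos, a group difference of -2.24 (exact permutation p = 0.1, adjusted 0.133). In these 3 pairs the groups did not overlap.

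The pair of fast paralogs differed less. tnnt3a minus tnnt3b was 0.28, -1.11 and -0.44 on the leflunomide arrays, against 0.08, 0.22 and 0.43 on the DMSO arrays. The groups overlapped, and the group difference of -0.67 was smaller than the spread of 0.69 (SD) over the leflunomide arrays (exact permutation p = 0.3, adjusted 0.3). Without leflunomide array 2 it was -0.33.

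**Figure D2:**
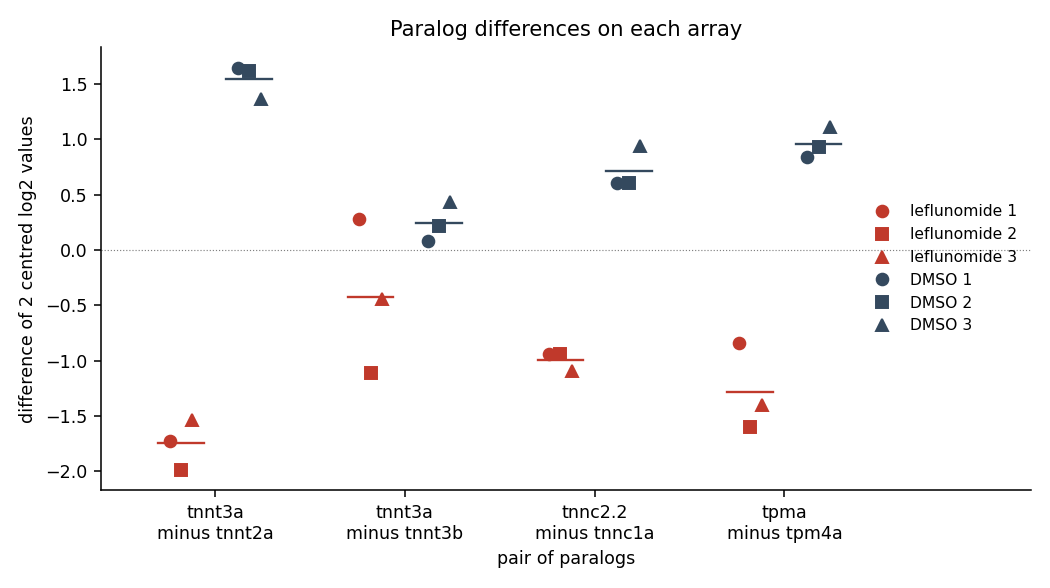
Differences between the centred log2 values of 2 paralogs (vertical axis) on each array, leflunomide in red and DMSO in blue, with group means as short lines. The leflunomide arrays lie below 0 and the DMSO arrays above 0 for tnnt3a minus tnnt2a, tnnc2.2 minus tnnc1a and tpma minus tpm4a, while the groups overlap for tnnt3a minus tnnt3b.

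The leflunomide arrays did not change to the same extent. Relative to the DMSO mean, tpma was 3.37-fold lower on array 1 and 5.65-fold and 5.40-fold lower on arrays 2 and 3. The corresponding values of tnnt3a were 8.51-fold, 14.6-fold and 14.3-fold, and those of tnnc2.2 were 2.73-fold, 3.94-fold and 4.78-fold. Some markers of heart and slow muscle also had array 1 nearest to DMSO. cmlc1 and myl7, myosin light chains of the heart, changed by 0.12, -1.57 and -3.13 and by 0.19, -1.43 and -2.18 on leflunomide arrays 1 to 3. smyhc1, the slow myosin heavy chain, changed by 0.06, -0.46 and -0.82. Over the whole lists, array 1 was the highest and array 3 the lowest leflunomide array in 3 of 3 tested slow muscle probe sets and in 3 of 7 tested heart probe sets, as in tnnt2a and tnnc1a. The order was the opposite in 2 heart probe sets, of gata5 (0.17, 0.28 and 0.62) and hand2, named after its values were seen (0.10, 0.14 and 0.14), and another in the remaining 2. bmp4, with 0.67, 1.09 and 0.06, had array 3 nearest to DMSO. The part of the spike-in differences on array 3 in this was not tested.

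**Figure D3:**
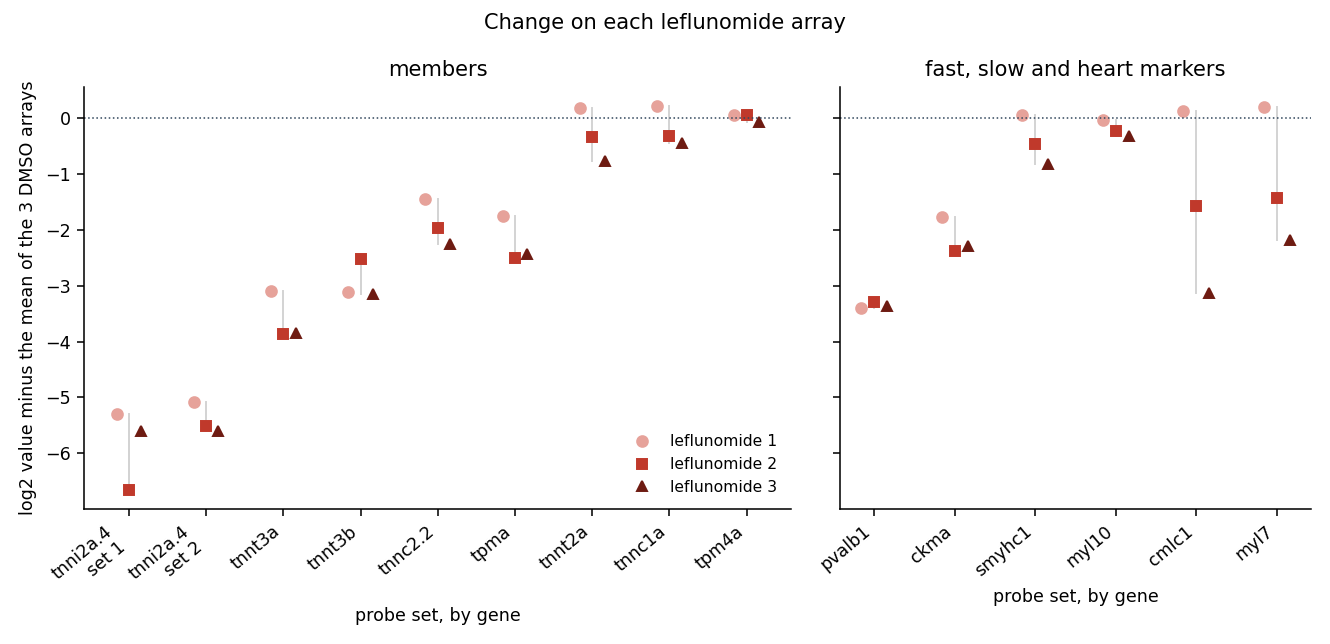
Log2 value on each leflunomide array minus the mean of the 3 DMSO arrays (vertical axis) for the 9 member probe sets (left) and for fast (pvalb1, ckma), slow (smyhc1, myl10) and heart (cmlc1, myl7) marker probe sets (right). The probe sets of fast isoforms lie far below 0 on all 3 arrays. tnnt2a, tnnc1a, smyhc1, cmlc1 and myl7 lie slightly above 0 on array 1 and below 0 on arrays 2 and 3. The markers shown are a selection from their lists. Of the slow list, prox1a is not shown and changed by -0.90, -1.35 and -1.59. Of the tested heart probe sets not shown, gata5, hand2 and bmp4 lay above 0 on all 3 arrays, and gata4 and tbx5a lay on both sides of 0.

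The differences of the members were then set beside those of marker lists for muscle types. All 12 tested probe sets of the fast skeletal list (11 genes) were lower, where 11.1% of all tested probe sets were. Their median difference was -3.89. pvalb1 and pvalb2, calcium-binding parvalbumins, had differences of -3.36 and -6.27, mylpfa, a fast myosin light chain, of -4.53 at its lower probe set, and ckma, the muscle creatine kinase, of -2.15. The list ran from -6.83 to -0.61, with the difference of tnni2a.4 in its lower part and those of tnnc2.2 and tpma near that of ckma. Only 3 of 9 slow muscle genes were on the array. prox1a, a transcription factor of slow muscle and of other tissues, fell by 1.28 (SE 0.18, limma adjusted p = 0.00362), while smyhc1 (-0.41, adjusted p = 0.2) and myl10 (-0.19, adjusted p = 0.243) were not called. In the heart list, 0 of 7 tested probe sets were called in either direction by limma, with a median of 0.04. Over all tested probe sets 21.1% were called, and 7 are too few to be told from that share. 2 of the 7 (gata5 and bmp4, both higher) had an unadjusted p under 0.05 in limma. The lowest adjusted p-values there belonged to gata5 (0.36, adjusted p = 0.107), bmp4 (0.61, adjusted p = 0.11), cmlc1 (-1.52, adjusted p = 0.159) and myl7 (-1.14, adjusted p = 0.16).

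Markers of other cell types differed as well. In the red blood cell list all 6 probe sets were lower (median -4.21), where 11.1% of all tested probe sets were. They ran from -1.19 for gata1a, named after its value was seen, to -5.58 for slc4a1a. In the smooth and non-muscle list desma, the desmin of muscle, fell by 1.92, and the other 2 probe sets, of acta2 and tagln, were not called. Among 11 tested probe sets of somite and early muscle genes 5 were higher and 2 lower. Over all tested probe sets these shares were 9.99% and 11.1%. tbx16 (1.71 and 0.87), mespaa (0.77), myf5 (0.81) and tbx6 (0.80) rose, mef2ca fell by 1.91, and mef2d fell by 0.76 at 1 of its 2 probe sets. Whether these transcript differences reflect a change in embryo makeup was not tested, nor was the part of such a change in the differences of the members.

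The remaining troponin and tropomyosin genes on the array, all named here whatever their values, had smaller differences than the called members. Of their 8 probe sets (7 genes), 6 were tested, 2 were lower and 0 higher. Over all tested probe sets 11.1% were lower, and 6 are too few to be told from that share. tnni2b.1, a further fast-type troponin I, had -0.34, -0.94 and -1.02 on the leflunomide arrays, against 0.34, 0.55 and 0.60 on the DMSO arrays, and fell by 1.27 (SE 0.19, limma adjusted p = 0.00474). tnnt2c, a troponin T gene of the cardiac type by name, fell by 0.67 (SE 0.14, limma adjusted p = 0.0173). The 4 tropomyosin probe sets, of tpm1, tpm3 and tpm4b, had differences from 0.09 to 0.34 and were not called.

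At probe sets of their own, the nearest neighbours of tnni2a.4 on the chromosome were measured only near the floor of the arrays. In the RefSeq gene order of the assembly GRCz12tu, used here for order only, tnni2a.2, tnni2a.3 and tnni2a.4 stand side by side, and 2 protein-coding genes lie between tnni2a.4 and tnnt3a. tnni2b.1 and tnnt3b likewise have 2 genes between them. At these probe sets tnni2a.2 and tnni2a.3 most likely had median levels under 4 and were not tested. Their differences were 0.07 and 0.06, against -5.39 and -5.85 for tnni2a.4. The probe set annotated to both tnni2a.4 and tnni2a.2 had a difference of -5.70 and cannot tell these genes apart.

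Part of the genes of the filament to which troponin and tropomyosin bind were lower too. Of a list of 42 further thin filament and Z-disc genes, which takes in the other troponins and tropomyosins just described, 19 were on the array and 17 tested, and 11 of their 22 tested probe sets (10 genes) were lower, 0 higher and 11 not called, where 11.1% of all tested probe sets were lower. The median difference was -0.55, against -2.58 for the members and 0.04 for all tested probe sets. neb, the giant nebulin that runs along the filament, fell by 1.92 (SE 0.20, limma adjusted p = 0.00153), and ldb3b and ldb3a of the Z-disc fell by 1.91 and 1.28. actn3b, an alpha-actinin of the Z-disc, fell by 1.59. The striated muscle actin genes actc1b, acta1a and actc1a fell by 1.45, 1.13 and 0.84, and the second called actc1b probe set fell by 1.36, while a further actc1b probe set had a difference of 0.62 that was not called. tmod4, a cap of the pointed filament end named outside the rule, fell by 0.54 (limma adjusted p = 0.0377). actn2b, another alpha-actinin gene also named outside the rule, had a difference of -0.13 and was not called (limma adjusted p = 0.728). The barbed-end capping protein genes capza1b and capzb, which most cells use and which are likewise outside the rule, were not called. Nor was acta2.

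**Figure D4:**
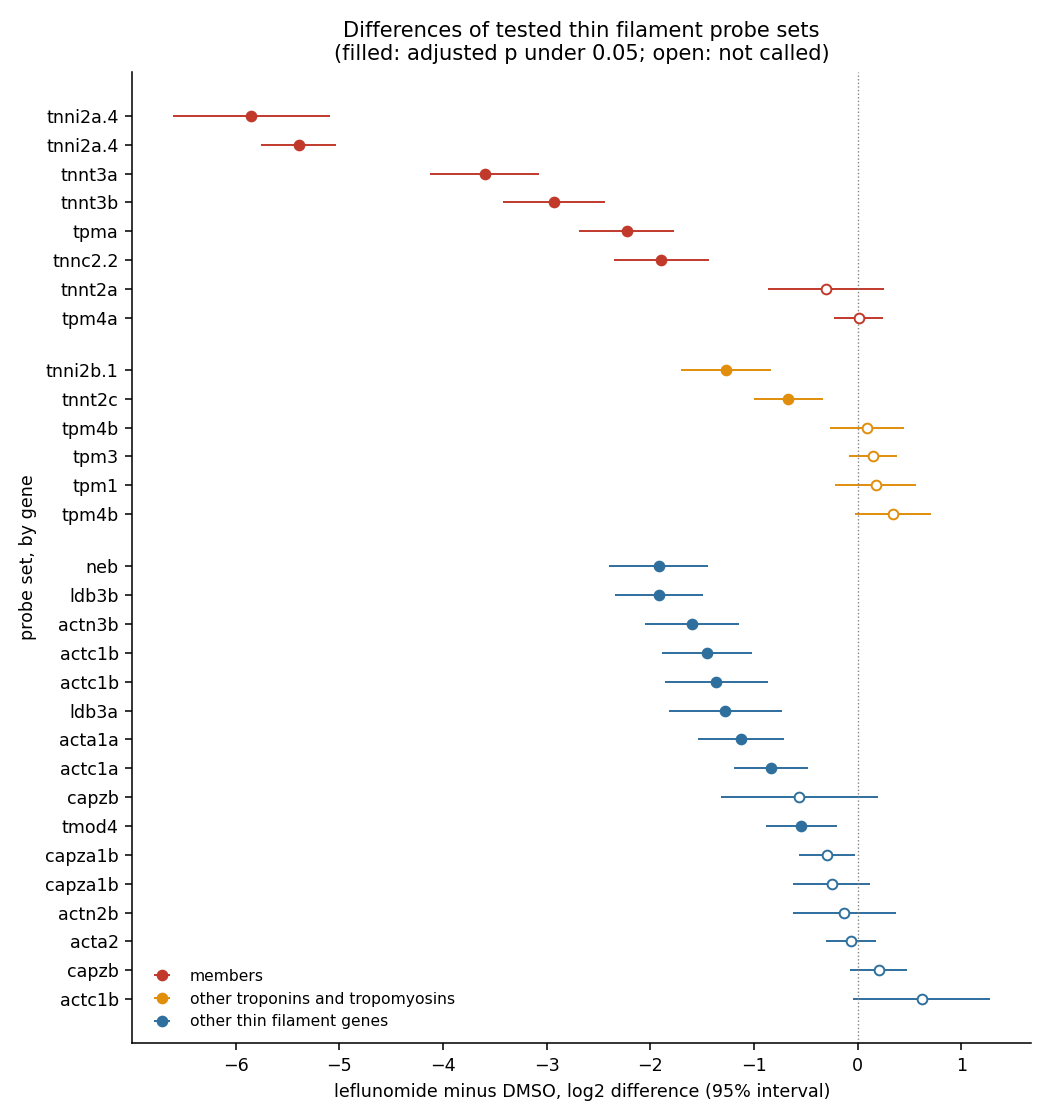
Leflunomide minus DMSO log2 differences (horizontal axis) with 95% intervals for tested probe sets of the members (red), the other troponins and tropomyosins (orange) and other thin filament genes (blue). Filled points passed an adjusted p under 0.05 in limma. The 6 called member probe sets lie between -5.85 and -1.89, and the lowest other probe set, of neb, lies at -1.92.

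Genes whose 6 array values lay closest to those of a member were found by Euclidean distance after subtraction of each probe set's mean over the arrays. A distance of this kind over 3 arrays against 3 is set chiefly by the size of the group difference. Closest to tnnt3a were myoz1b (distance 0.63), a Z-disc gene, then crestin (0.65), pabpc4 (0.82) and dct (0.88), with differences from -3.25 to -2.94. Closest to tpma were ckma (0.185), bhlhe22 (0.24), klhl41b (0.28) and epb41b (0.33), with differences from -2.38 to -2.06. Closest to tnnt2a were pleca (0.28), smyhc1 (0.33), gnb1a (0.34) and f13a1b (0.36), with differences from -0.43 to -0.23. As the genes were chosen for their likeness to tnnt2a, the small differences and the order of the arrays that they share with it were fixed by that choice.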

How the data were processed

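Total RNA of whole zebrafish embryos was measured on 6 Affymetrix arrays with 15617 probe sets, of which 115 are array controls. The authors deposited log2 values made with GCRMA, according to the submitters' processing notes. This method corrects for background by probe sequence, normalizes by quantiles and gives 1 value per probe set. Its version and the centring of each probe set on its median are not given in the sources used here, and base 2, which GCRMA uses, was assumed for the logs. Direction was taken from the sample titles.

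A coarse level was recovered from the single-precision rounding step of the deposited values, which doubles at levels of 4 and 8. Probe sets most likely at a median level of 4 or more were tested (12516). The group difference was estimated by limma 3.58.1 (lmFit, eBayes; R 4.3.3), two-sided, with Benjamini-Hochberg adjustment over the tested probe sets and a threshold of 0.05. Both procedures were tested on simulated data. Only probe sets with 1 annotated gene were named, and symbols were checked against RefSeq. A probe set can also bind transcripts of a close paralog.

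The members, the lists and the tests were chosen with earlier results of these data known. The genes named were all members, the 8 thin filament genes with the lowest p, up to 4 per marker list (fast, slow, heart, smooth and non-muscle, somite and red blood cell) and the 4 nearest patterns of tnnt3a, tnnt2a and tpma. Exceptions are marked, and further somite genes were named after their values were seen. The alternatives were other level filters, arrays scaled to a common median or 75th percentile, robust eBayes, array weights, the replicate block, each array left out, a stricter threshold and the mean over probe sets. No batch is given in the labels.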

Additional observations from a re-analysis of the deposited data

How the results depend on the processing

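In every alternative tried, each called member probe set that passed the filter kept its direction and its call, and no alternative called a further member. The count of called members stayed at 6 lower and 0 higher, except that a level of at least 8 left out the first tnni2a.4 probe set and gave 5. Over the 6 fits that left out 1 array, the differences ran from -6.13 to -5.45 and from -5.55 to -5.29 at the 2 tnni2a.4 probe sets, from -3.85 to -3.46 for tnnt3a, from -3.14 to -2.78 for tnnt3b, from -2.12 to -1.71 for tnnc2.2 and from -2.47 to -2.09 for tpma, with a highest limma adjusted p of 0.0147. The counts over all probe sets depended more on single arrays. They ran from 439 to 1385 higher and from 735 to 1466 lower when 1 array was left out. They were 639 and 852 without leflunomide array 2, 546 and 780 without DMSO array 1, 530 and 735 without DMSO array 2, and 439 and 744 without DMSO array 3, and the cause was not tested. A level of at least 8 gave 636 higher and 539 lower among fewer probe sets, and an adjusted p under 0.01 gave 297 and 589. Arrays of the same replicate number correlated in their deviations from the group means by 0.33, 0.19 and 0.072. Arrays of different numbers correlated less, by -0.23 to 0.049. Deviations from a group mean cancel out within the group, so a positive correlation at the same number by itself lowers the others. The numbers were not taken as pairs in the main fit, and whether they stand for pairs was not tested. With the replicate block 1253 probe sets were higher and 1318 lower, and the members' calls were as without it (adjusted p = 0.00404 for tnnc2.2, the highest). Without leflunomide array 2 the difference of tnnt3a minus tnnt3b was -0.33, and without leflunomide array 1 it was -1.02. Values near the lowest level the array can read, such as that of tnni2a.4 on leflunomide array 2, limit how large a fall can be measured.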
